A study of Mus musculus with 14 samples.

Results

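The circadian clock genes were followed in the mouse mammary gland through puberty. They are the 10 genes Arntl, Clock, Npas2, Per1, Per2, Per3, Cry1, Cry2, Dbp and Tef, measured by the 18 probe sets whose platform annotation names exactly 1 of them, of 22690 probe sets on the array. All 18 were kept by the filter on low level. Among them a level could be recovered only for the probe sets of Npas2, Per2 and Cry1, Per3 1421086_at and Tef 1438033_at. The others were kept without one. The samples were whole inguinal glands (the 4th pair) with their lymph nodes taken out, from untreated female CD1 mice, an outbred strain. They were taken at 3, 4, 5, 6 and 7 weeks of age (3wk to 7wk). Every age had 3 arrays, lettered A, B and C, except 5wk with only A and B, which gives 14. Each array was hybridised with RNA pooled from at least 3 mice, so differences between single mice were averaged within a pool. The sources used here do not give the hour of the day at which glands were dissected, and its part in any difference below was not tested.

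Values are given as ratios: the median of a probe set over the 14 arrays is 1, so a ratio tells how an array stands within the series of that probe set, and no gene's level can be read against another's. Differences are given as log2 of the later age over the earlier, with their standard error (SE), from a limma fit with age as a factor across 18490 probe sets. A change is called at a Benjamini-Hochberg adjusted p under 0.05 within the comparison. A gland holds epithelium, fat, vessels and immune cells, and fewer cells of a type and less RNA per cell cannot be told apart in such a sample.

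In mammals the clock is a feedback loop of transcription. CLOCK or its paralogue NPAS2 pairs with ARNTL (also called BMAL1) and switches on the Per and Cry genes through E-boxes, and the PER and CRY proteins then hold that pair back. The same pair drives Dbp and Tef, PAR bZIP factors that act on D-boxes, while NR1D1, NR1D2 and the ROR factors act on Arntl through ROR elements. In most mouse tissues Arntl and Npas2 cycle roughly opposite in phase to Per3, Dbp and Tef.

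Promoters of 4 of the genes are shown because each holds an element through which the loop is known to act. They are RefSeq sequences of build GRCm38.p6 from 250 bases before to 50 after a transcription start, written 5′ to 3′ on the strand of the gene, with the element in capitals. They come from chr4:151044616-151044915 (minus strand) for Per3, chr10:85185005-85185304 (minus strand) for Cry1, chr15:81802423-81802722 (plus strand) for Tef and chr7:113207261-113207560 (plus strand) for Arntl.
Per3: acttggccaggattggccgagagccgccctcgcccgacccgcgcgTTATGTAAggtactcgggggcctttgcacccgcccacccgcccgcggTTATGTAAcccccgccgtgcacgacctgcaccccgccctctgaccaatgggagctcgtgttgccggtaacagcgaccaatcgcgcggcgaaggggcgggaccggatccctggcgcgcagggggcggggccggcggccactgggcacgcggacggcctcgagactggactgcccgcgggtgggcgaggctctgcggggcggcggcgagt
Cry1: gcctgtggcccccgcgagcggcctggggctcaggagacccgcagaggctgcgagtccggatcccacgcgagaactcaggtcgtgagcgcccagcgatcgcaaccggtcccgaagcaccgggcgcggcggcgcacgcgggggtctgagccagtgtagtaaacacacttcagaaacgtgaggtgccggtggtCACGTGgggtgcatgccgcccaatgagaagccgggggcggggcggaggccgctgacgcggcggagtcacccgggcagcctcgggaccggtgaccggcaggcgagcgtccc
Tef: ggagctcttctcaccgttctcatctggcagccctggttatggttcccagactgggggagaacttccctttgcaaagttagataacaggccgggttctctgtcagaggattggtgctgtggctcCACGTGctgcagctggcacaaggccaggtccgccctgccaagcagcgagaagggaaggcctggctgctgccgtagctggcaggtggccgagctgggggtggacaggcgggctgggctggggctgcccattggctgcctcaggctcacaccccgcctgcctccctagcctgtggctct
Arntl: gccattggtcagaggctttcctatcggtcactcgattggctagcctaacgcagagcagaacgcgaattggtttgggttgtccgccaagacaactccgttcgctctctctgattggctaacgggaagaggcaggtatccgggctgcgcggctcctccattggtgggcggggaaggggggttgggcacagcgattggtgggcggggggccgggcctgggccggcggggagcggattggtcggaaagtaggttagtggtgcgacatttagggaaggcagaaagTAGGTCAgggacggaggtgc

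Positions are counted from 1 at the first transcribed base, with -1 just before it. Per3 had the D-box TTATGTAA at -205 and again at -158, Cry1 the E-box CACGTG at -60, Tef an E-box at -127, and Arntl the ROR element TAGGTCA at 31. Both strands of 32851 promoters of this length were searched. The E-box was found in 7.15% of them, the D-box (TTATGTAA or TTACGTAA) in 1.06% and the ROR element (TAGGTCA or TGGGTCA) in 6.45%, and only 8 promoters held 2 or more D-boxes. Of the 10 genes 9 matched the promoter table, all but Per2. Of these 9, 3 had the E-box in at least 1 promoter (Per1, Cry1 and Tef), 1 the D-box and 1 the ROR element. Some genes had several promoters in the table. Counted by promoter like the shares above, 4 of 14 held the E-box, 1 the D-box and 1 the ROR element. The other promoters of Arntl and Per1 held none of these elements. A match describes the letters in this window and says nothing of binding in these glands.

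Some arrays stood apart in these genes. Array A of 3wk had the highest of the 14 ratios in 6 of the 18 probe sets, more than any other array, and the lowest in 3. It held the top of both Per2 probe sets and the bottom of both Npas2 probe sets. The 5' to 3' log2 ratio of the actin control probe sets, a sign of RNA quality, was -0.46 (A), -0.79 (B) and -0.08 (C) on the 6wk arrays, against 0.18, 0.09 and -0.06 on those of 3wk. It was taken from ratios to the median of each probe set. It therefore compares arrays within the series and does not give the 5' to 3' signal itself. The mean log2 ratio of 18 hybridisation control probe sets, which are spiked in, ran from -1.87 to -0.79 at 7wk, against -0.23 to 0.56 at 3wk. Every 7wk array lay below every array of the other ages, of which the lowest was 6wk A at -0.58. The age of 7wk and these controls therefore cannot be fully told apart, also in a fit that holds both. With these controls as a covariate the comparison of 7wk with 3wk called 352 probe sets of the whole array, against 1580 without it, and Npas2, Dbp and Per3 are given with it where their calls are described.

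Late in puberty the members did not move one way. The 10 genes were taken as the mean of log2 ratios over their probe sets. Dbp and Per3 fell at 7wk compared with 3wk, Tef fell at 6wk compared with 3wk, and Cry1 rose at 7wk compared with 4wk. Of 23 alternatives these calls held in 11 (Dbp), 16 (Per3), 21 (Tef) and 11 (Cry1). That of Tef was lost with the actin ratio as a covariate and without 6wk A and B. The comparison of Cry1 with 4wk was added after the values were seen. Npas2 was also called as higher at 7wk than at 3wk, but it had passed the filter on level through the arrays where it was high, so that call is a description only. Arntl, Clock, Per1, Per2 and Cry2 passed no test between ages. At the level of single probe sets, the F test over the 5 ages called 2 of 18, Dbp (1418174_at, adjusted p = 0.0115) and Tef (1450184_s_at, adjusted p = 0.0288), where it called 10.3% of all probe sets. The Tef call was lost in 7 of 23 alternatives, with adjusted p from 0.0606 to 0.189. The members' share of calls in this F test was therefore near that of the array as a whole. Before adjustment, 8 of 18 had an F test p under 0.05, both Npas2 probe sets among them, beside 27.65% of the array.

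**Figure D1:**
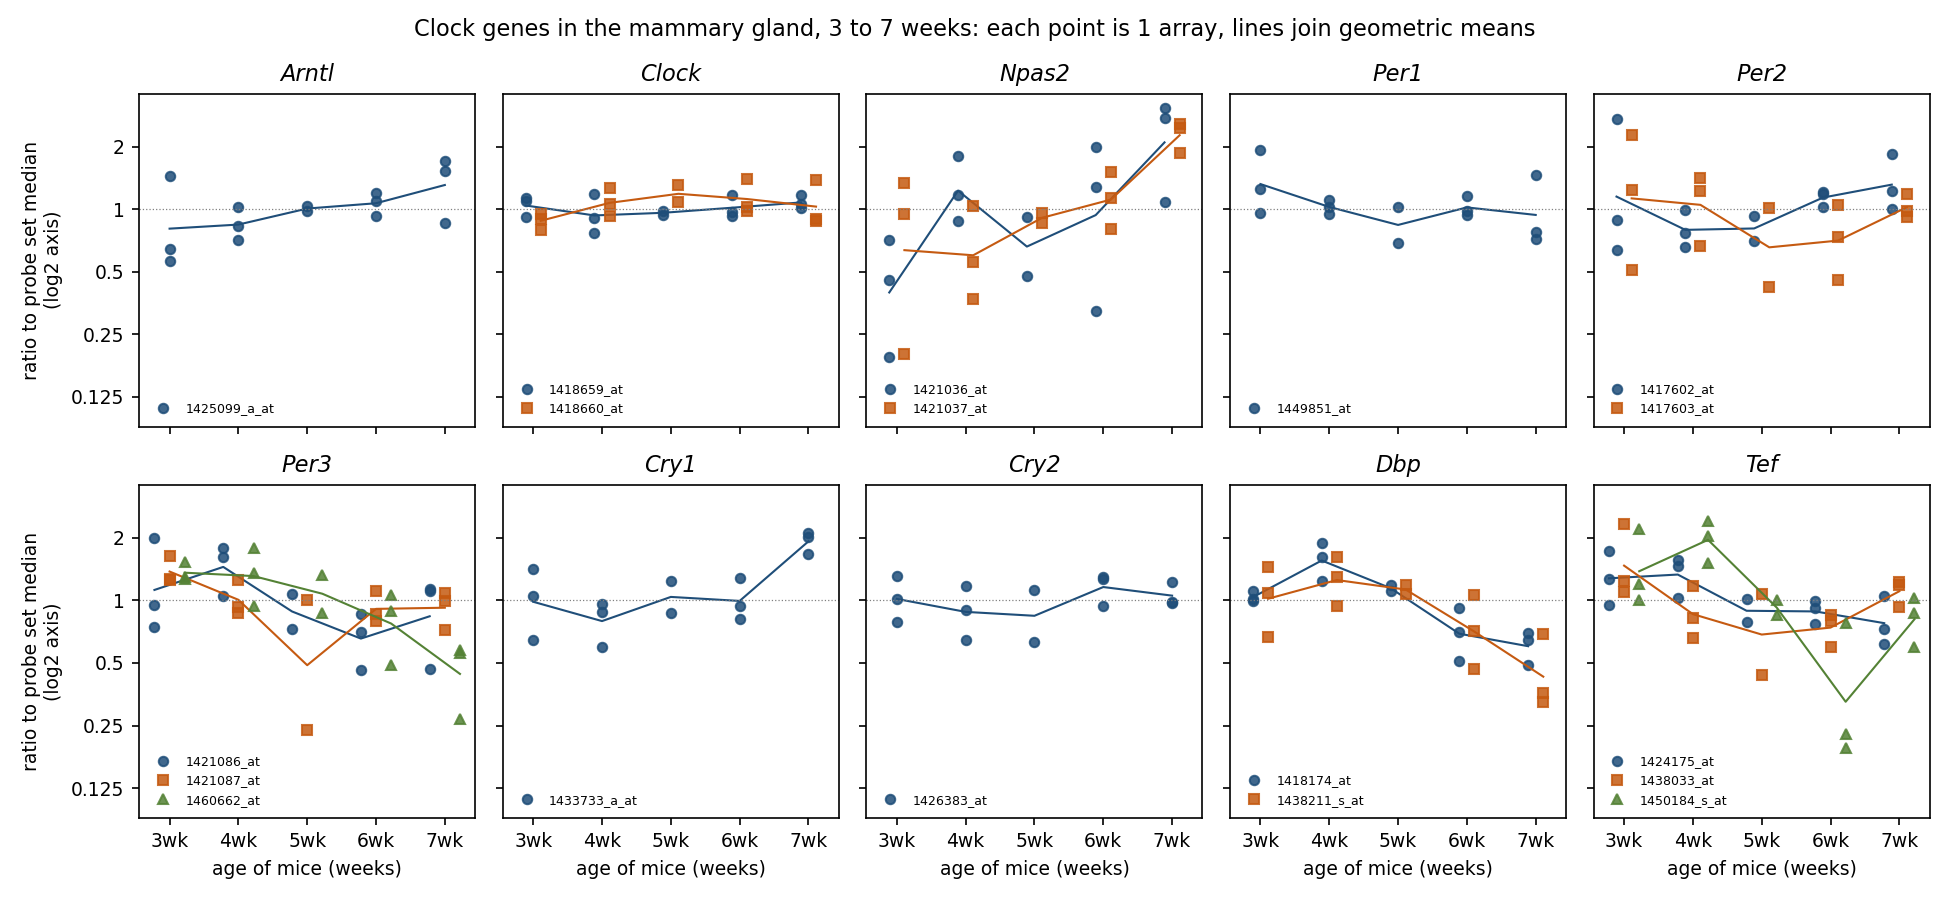
Ratios of the 10 clock genes on the 14 arrays by age of the mice in weeks, on a log2 axis. Each point is 1 array, symbols and colours mark the probe sets of a gene, and lines join geometric means of an age. All 3 arrays of 7wk lie above all of 3wk for Cry1 and for both probe sets of Npas2, and below them for Dbp 1418174_at, while Clock stays between 0.765 and 1.40 throughout.

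The activators of the loop differed among themselves. Npas2, the paralogue of Clock that can pair with Arntl, had the widest range. With probe set 1421036_at its ratios were 0.194, 0.709 and 0.457 at 3wk, 0.876, 1.17 and 1.81 at 4wk, 0.478 and 0.914 at 5wk, 1.28, 0.323 and 1.99 at 6wk, and 1.09, 3.08 and 2.75 at 7wk. With 1421037_at they were 0.202, 1.34 and 0.95 at 3wk, 0.56, 0.371 and 1.04 at 4wk, 0.861 and 0.959 at 5wk, 1.51, 0.806 and 1.13 at 6wk, and 1.86, 2.45 and 2.56 at 7wk. In both probe sets every 7wk array lay above every 3wk array, and the second also held 7wk above all other ages.

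The mean ratio of 1421036_at was 2.31 ± 1.07 at 7wk and 0.453 ± 0.258 at 3wk (SD, n = 3 each), and that of 1421037_at was 2.29 ± 0.377 at 7wk and 0.829 ± 0.577 at 3wk. As single probe sets, neither passed the test of 7wk against 3wk, with log2 differences of 2.40 (SE 0.69, adjusted p = 0.0548) and 1.84 (SE 0.60, adjusted p = 0.0844) by limma. As a gene mean Npas2 differed by 2.12 (SE 0.59, adjusted p = 0.0439 by limma). It was past the threshold in 8 of 23 alternatives, with adjusted p from 0.0305 to 0.127. Without the filter on level the adjusted p was 0.063, without array A of 3wk the difference was 1.45 (adjusted p = 0.124), and with the hybridisation controls as a covariate it was 2.95 (adjusted p = 0.102).

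Npas2 was also weakly expressed on this array. From the rounding of the ratios, its level before division by the median could be recovered in steps of the smallest unit. It reached the filter of 200 steps on 3 arrays for 1421036_at (6wk C, 7wk B and 7wk C) and on 5 for 1421037_at (6wk A and C and all of 7wk), so it passed through the arrays where it was high and its test between ages supports nothing. On 7wk C it stood at 429 and 547 steps, and on 3wk A at 21 and 30. The lowest ratios therefore lie near the bottom of the scale.

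Arntl, the partner shared by Clock and Npas2, had ratios of 0.562, 0.642 and 1.45 at 3wk, 0.711, 0.827 and 1.02 at 4wk, 1.04 and 0.98 at 5wk, 0.925, 1.1 and 1.2 at 6wk, and 1.53, 1.70 and 0.855 at 7wk. The means ran 0.885 ± 0.492, 0.853 ± 0.156, 1.01 ± 0.0389, 1.07 ± 0.138 and 1.36 ± 0.449 from the first to the last age (SD, n = 3, and n = 2 at 5wk). Array C was the exception at both ends, the highest of 3wk and the lowest of 7wk, and 7wk overlapped every other age. The difference of 7wk against 3wk was 0.70 (SE 0.35, adjusted p = 0.261 by limma), and without single arrays in turn it ran from 0.44 to 1.12.

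Clock had the narrowest range. Its 2 probe sets stayed within 0.765 to 1.18 (1418659_at) and 0.797 to 1.40 (1418660_at) over the 14 arrays. The difference of 7wk against 3wk was 0.05 (SE 0.17) for the first and 0.23 (SE 0.21) for the second, and no comparison of ages called either. The spread within ages of 1418659_at, an SD of 0.19 on the log2 scale, was at the 25.6th percentile of all tested probe sets. The corresponding SDs of the Npas2 probe sets, 0.94 and 0.81, were at the 93.8th and 90.2nd percentiles.

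Among the repressors, Per3 and Cry1 passed a test and Per1, Per2 and Cry2 did not. Per3, the period gene that is dispensable for the mouse clock, was measured by 3 probe sets that differed from each other. The ratios of 1460662_at were 1.29, 1.53 and 1.27 at 3wk, 1.78, 1.35 and 0.935 at 4wk, 0.873 and 1.33 at 5wk, 0.49, 1.07 and 0.887 at 6wk, and 0.577, 0.56 and 0.269 at 7wk. All 3 arrays of 7wk lay below all of 3wk, 4wk and 5wk, and overlapped 6wk through array A of that age.

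The mean ratio of Per3 1460662_at was 0.469 ± 0.173 at 7wk and 1.36 ± 0.148 at 3wk (SD, n = 3 each), a log2 difference of -1.62 (SE 0.37, adjusted p = 0.0199 by limma). It was the 1 member probe set of 18 called for 7wk against 3wk, where 8.55% of all were called, 2.6% of all as lower. Before adjustment, a p under 0.05 was reached by 7 of the 18, both Npas2 probe sets among them, beside 22.69% of the array. The Per3 call was lost without 3wk B (adjusted p = 0.0637) or 7wk C (adjusted p = 0.0684). It was also lost with the hybridisation controls as a covariate (difference -1.34, adjusted p = 0.251), and it held in the other 20 of 23 alternatives.

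The other Per3 probe sets showed smaller differences of 7wk against 3wk, -0.58 (SE 0.41) for 1421087_at and -0.42 (SE 0.43) for 1421086_at, neither called. For 1421087_at every 7wk array (1.09, 0.996 and 0.721) was nonetheless below every 3wk array (1.25, 1.64 and 1.27), and 5wk B was the lowest of the series at 0.237. For 1421086_at the ratios were 1.14, 0.469 and 1.11 at 7wk and 2.0, 0.945 and 0.747 at 3wk, with 7wk B below all of 3wk and the other two among them. Over the 14 arrays the log2 ratios of the 3 probe sets correlated with r between 0.067 and 0.337. As a gene mean Per3 fell by 0.87 at 7wk compared with 3wk (SE 0.23, adjusted p = 0.0361 by limma), a call that held in 16 of 23 alternatives (adjusted p 0.0194 to 0.123). It was lost without the filter on level (adjusted p = 0.0531), and with the hybridisation controls as a covariate the difference was -1.17 (adjusted p = 0.102).

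Cry1, which encodes the stronger repressor of the cryptochrome pair, was flat until the last age. Its ratios were 1.42, 0.646 and 1.04 at 3wk, 0.596, 0.882 and 0.956 at 4wk, 1.24 and 0.874 at 5wk, 0.813, 1.28 and 0.941 at 6wk, and 1.67, 2.10 and 2.02 at 7wk. The 3 arrays of 7wk were the 3 highest of the series. The ages with 3 arrays had means of 1.03 ± 0.385 (3wk), 0.811 ± 0.19 (4wk), 1.01 ± 0.243 (6wk) and 1.93 ± 0.226 (7wk), each with its SD.

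Cry1 rose at 7wk compared with 4wk by 1.27 (SE 0.29, adjusted p = 0.0421 by limma), in a comparison added after the values were seen. Over gene means, where its adjusted p was 0.0367, that comparison called 3.78% of all genes. The differences of 7wk from 3wk, 0.97 (SE 0.29, adjusted p = 0.0678), and from 6wk, 0.95 (SE 0.29, adjusted p = 0.178), were not called. The call against 4wk held in 7 of 23 alternatives, with adjusted p from 0.0268 to 0.415, the highest with the hybridisation controls as a covariate. Without the filter on level the adjusted p was 0.0646. The recovered level of Cry1 was under 200 steps on all of 4wk (100, 164 and 155), against 460, 415 and 514 steps at 7wk. Cry2, the other cryptochrome, stayed between 0.634 and 1.31, and its difference of 7wk against 3wk was 0.05 (SE 0.28).

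Per1 and Per2, the period genes that respond to hormones in many tissues, were called in no comparison, and the pools of 3wk differed widely in both. Per1 had ratios of 0.78, 1.47 and 0.722 at 7wk and of 1.93, 1.25 and 0.957 at 3wk, which overlap, and its lowest ratio was 0.691 on 5wk B. Its difference of 7wk against 3wk was -0.49 (SE 0.30, adjusted p = 0.372 by limma).

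Per2 had ratios of 1.84, 1.01 and 1.22 at 7wk with probe set 1417602_at, against 2.70, 0.887 and 0.634 at 3wk. With 1417603_at it had 1.18, 0.921 and 0.982 at 7wk, against 2.28, 0.508 and 1.23 at 3wk. In both, array A of 3wk was the highest of the series and the ages overlapped. The differences of 7wk against 3wk were 0.19 (SE 0.44) and -0.14 (SE 0.53). Leaving out single arrays in turn moved the first from -0.24 to 0.81 and the second from -0.72 to 0.37, so neither kept a direction.

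**Figure D2:**
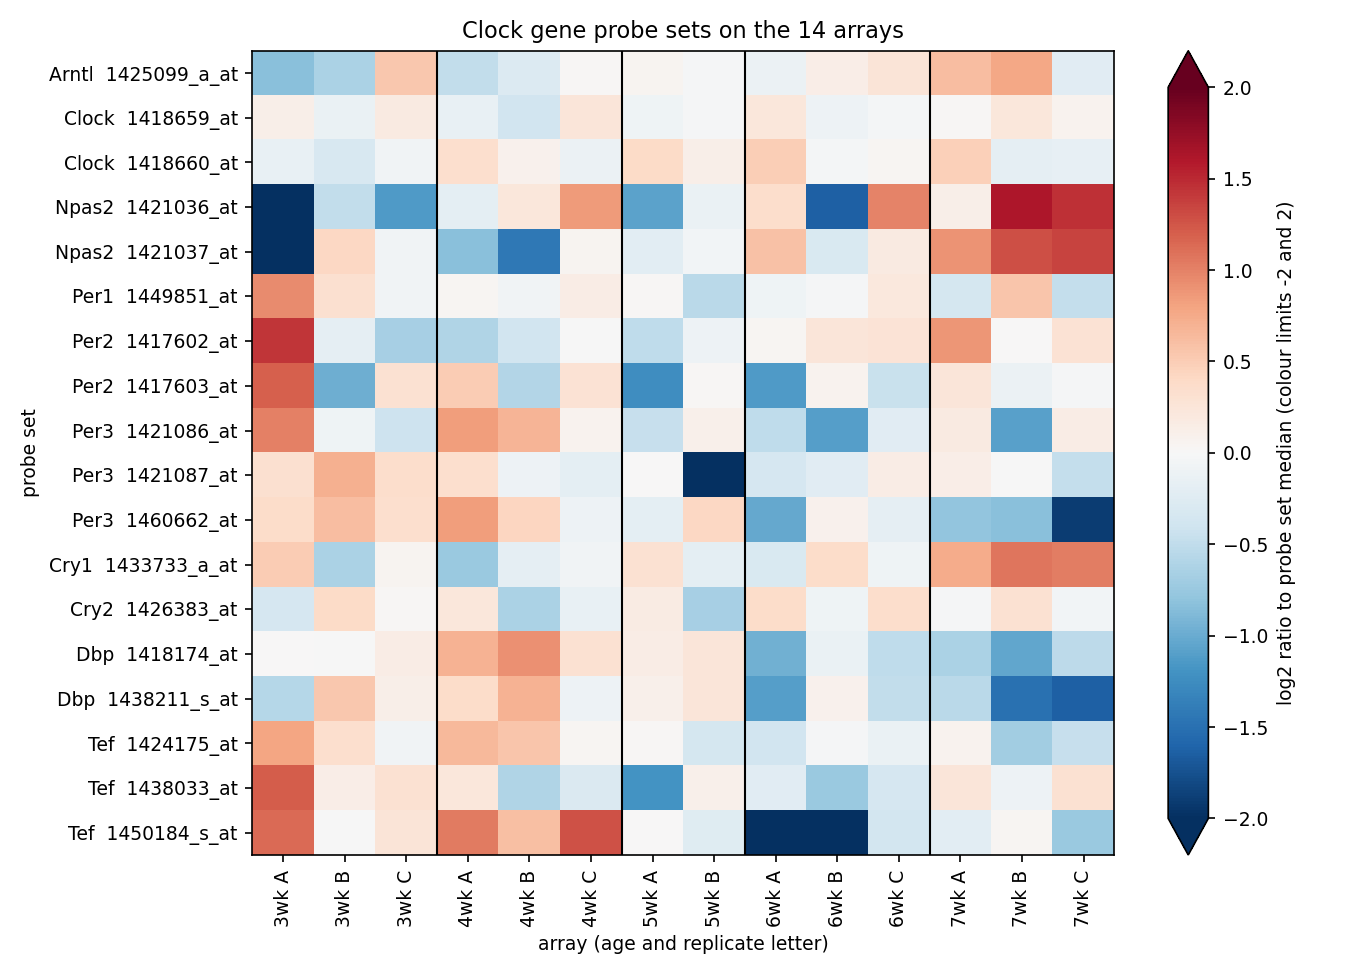
Log2 ratios of the 18 clock gene probe sets (rows) on the 14 arrays (columns, by age and replicate letter), with red above and blue below the probe set's median and colours limited to -2 and 2. Array 3wk A shows the lowest ratios of Npas2 and the highest of Per2, and 6wk A and B the lowest of Tef 1450184_s_at. The 3 arrays of 7wk are red for Npas2 and Cry1 and blue for Dbp and for Per3 1460662_at.

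Both calls of the F test were of output factors. Dbp, whose transcript has one of the deepest daily rhythms in mouse tissues, was measured by 2 probe sets. The ratios of 1418174_at were 1.01, 0.99 and 1.11 at 3wk, 1.62, 1.88 and 1.24 at 4wk, 1.11 and 1.18 at 5wk, 0.513, 0.915 and 0.704 at 6wk, and 0.642, 0.489 and 0.695 at 7wk. Every array of 4wk was above every array of all other ages, and every array of 6wk and 7wk was below every array of 3wk, 4wk and 5wk. The ratios of 1438211_s_at were 0.67, 1.45 and 1.09 at 3wk, 1.29, 1.62 and 0.937 at 4wk, 1.07 and 1.19 at 5wk, 0.467, 1.06 and 0.712 at 6wk, and 0.686, 0.357 and 0.324 at 7wk.

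The 2 Dbp probe sets followed each other over the 14 arrays with r = 0.841, the closest of any pair for 1 gene here. The mean ratio of 1418174_at over 3 arrays, with its SD, was 1.04 ± 0.0649 (3wk), 1.58 ± 0.321 (4wk), 0.711 ± 0.201 (6wk) and 0.609 ± 0.107 (7wk). In the comparisons added after the values were seen it fell at 7wk compared with 4wk by 1.37 (SE 0.22, adjusted p = 0.0102 by limma) and at 6wk compared with 4wk by 1.17 (SE 0.22, adjusted p = 0.0106 by limma). The first lost its call without 4wk B (-1.23, adjusted p = 0.0515) and with the hybridisation controls as a covariate (-1.33, adjusted p = 0.253). The second lost it with the hybridisation controls (-1.15, adjusted p = 0.0508) or the actin ratio (-1.42, adjusted p = 0.148) as a covariate and without 6wk A and B (-1.14, adjusted p = 0.0664). The F test of 1418174_at was lost only with the hybridisation controls as a covariate (adjusted p = 0.126) among 23 alternatives.

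Against 3wk the 7wk difference of Dbp was -0.78 (SE 0.22, adjusted p = 0.0521) and -1.24 (SE 0.38, adjusted p = 0.0703) with the single probe sets, neither called by limma. As a gene mean Dbp fell by 1.01 (SE 0.28, adjusted p = 0.0396 by limma), which held in 11 of 23 alternatives. It was lost without the filter on level (adjusted p = 0.0579), and with the hybridisation controls as a covariate the difference was -1.06 (adjusted p = 0.227). Of the 10 genes 3 were called for 7wk against 3wk (Dbp, Per3 and Npas2), where 10.1% of 10674 genes were called. Npas2 counts here as a description only, since it had passed the filter on level through the arrays where it was high. The probe sets of Dbp 1438211_s_at and Tef 1450184_s_at carry the suffix s, which marks probes that can match more than 1 transcript.

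Tef, the second PAR bZIP factor, had its lowest gene mean at 6wk. With 1450184_s_at the ratios were 2.19, 0.999 and 1.20 at 3wk, 2.05, 1.51 and 2.42 at 4wk, 1.0 and 0.849 at 5wk, 0.228, 0.195 and 0.775 at 6wk, and 0.868, 1.03 and 0.599 at 7wk. The 6wk arrays were below every array of the 3 younger ages, and A and B of 6wk stood far below C. The mean was 1.46 ± 0.638 at 3wk, 1.99 ± 0.456 at 4wk and 0.399 ± 0.326 at 6wk (SD, n = 3 each).

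The difference of Tef 1450184_s_at at 6wk against 3wk was -2.09 (SE 0.47, adjusted p = 0.0152 by limma), and against 4wk it was -2.59 (SE 0.47, adjusted p = 0.00885 by limma). It was the 1 member called of 18 for 6wk against 3wk, where 13.7% of all probe sets were called, 4.58% of all as lower. Arrays 6wk A and B are also those with the lowest actin 5' to 3' ratios. Without both of them the difference from 3wk was -0.83 (adjusted p = 0.355) and with the actin ratio as a covariate -0.72 (adjusted p = 0.492). The call was also lost without 3wk A, 6wk A or 6wk B alone, with adjusted p of 0.0548, 0.0592 and 0.0538. Against 4wk the difference was -1.34 without 6wk A and B (adjusted p = 0.184) and -0.88 with the actin ratio (adjusted p = 0.587), neither called.

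The remaining Tef probe sets were not called. With 1424175_at the 6wk ratios were 0.766, 0.988 and 0.915, against 1.73, 1.27 and 0.949 at 3wk. With 1438033_at they were 0.853, 0.599 and 0.792 at 6wk, against 2.33, 1.1 and 1.24 at 3wk, without overlap. Both thus had mean ratios at 6wk below those of 3wk, with log2 differences of -0.53 (SE 0.26) and -0.99 (SE 0.36). As a gene mean Tef fell by 1.20 at 6wk compared with 3wk (SE 0.26, adjusted p = 0.0124 by limma), where 14.1% of genes were called. Without 6wk A and B the gene mean difference was -0.74 (adjusted p = 0.277), and with the actin ratio as a covariate it was -0.55 (adjusted p = 0.397).

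**Figure D3:**
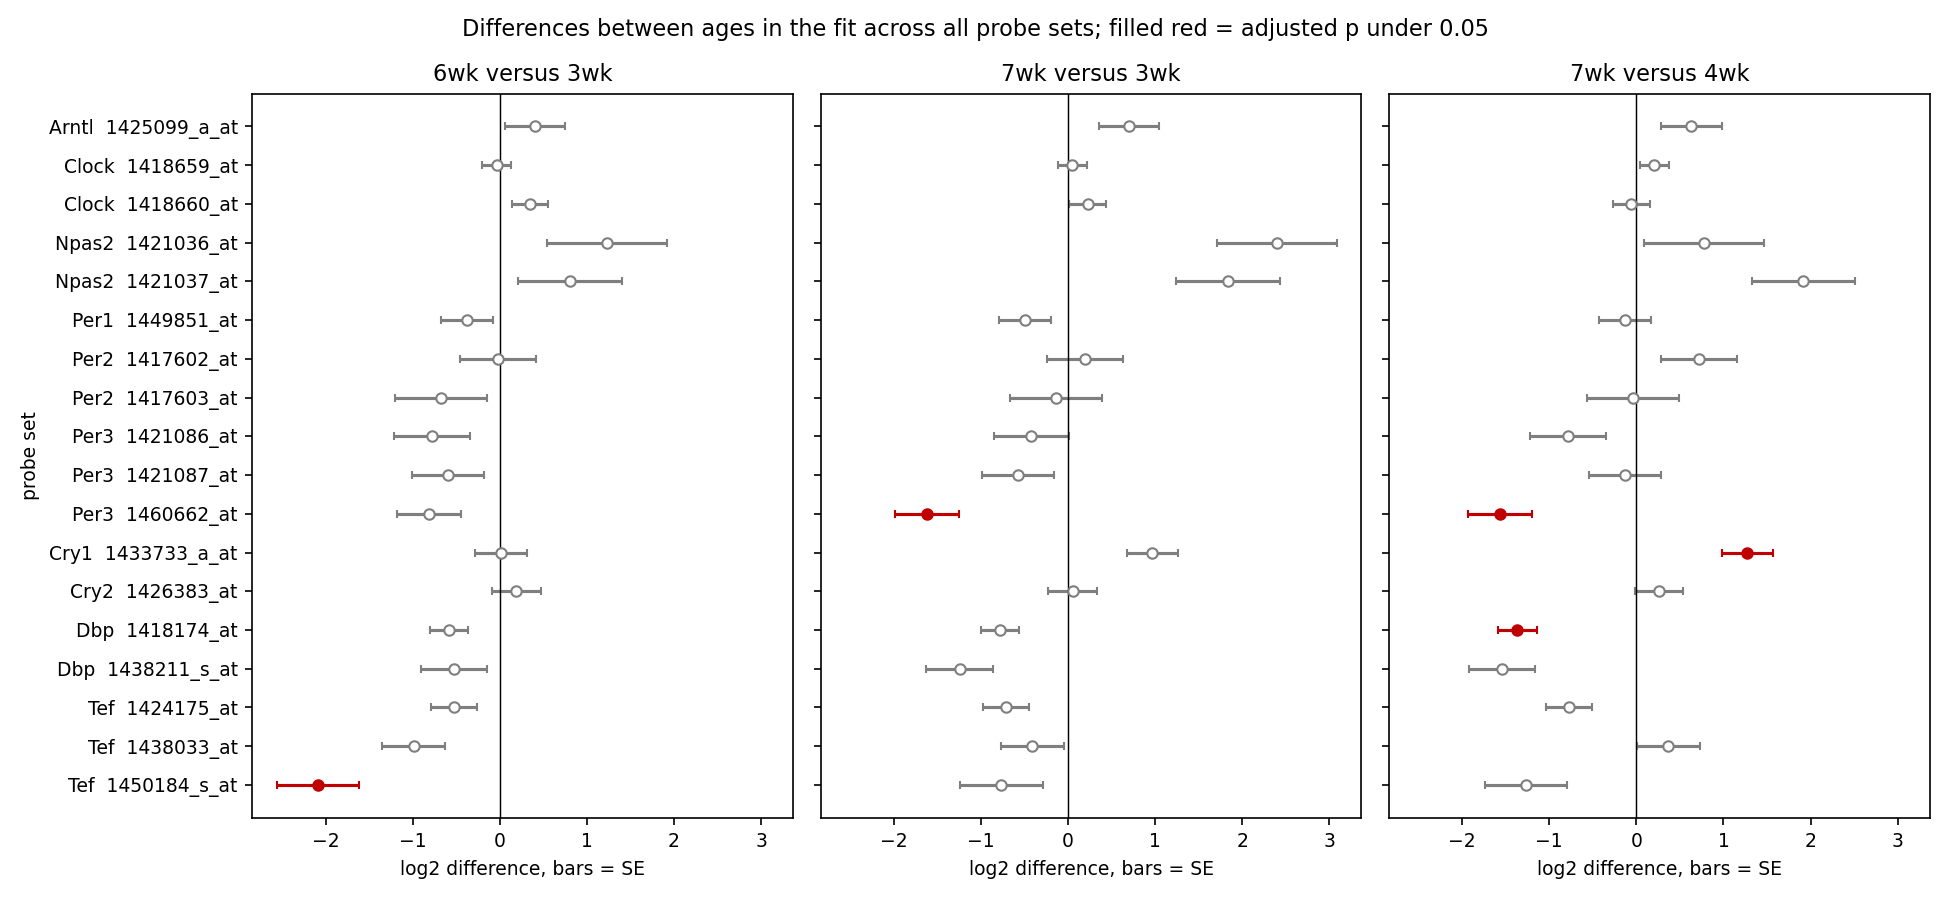
Log2 differences between ages of the 18 clock gene probe sets, with bars of 1 SE, from the limma fit across all probe sets, for 6wk against 3wk, 7wk against 3wk and 7wk against 4wk. Filled red points have an adjusted p under 0.05. They are Tef 1450184_s_at in the first panel, Per3 1460662_at in the second, and Per3 1460662_at, Cry1 and Dbp 1418174_at in the third.

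The counts of member probe sets called are given for each comparison beside the share of the array. No member was called for 4wk or 5wk against 3wk, or for 5wk against 4wk, 6wk against 5wk or 7wk against 6wk by limma. The background was 0.151% and 3.63% of all probe sets in the first pair, and 0.752%, 0.281% and 0.957% in the weekly steps. At an unadjusted p under 0.05 these 5 comparisons took 2, 2, 1, 2 and 3 of the 18, beside 10.27%, 17.66%, 14.93%, 10.5% and 14% of all probe sets.

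Of the comparisons added after the values were seen, 6wk against 4wk called 2 (Dbp 1418174_at and Tef 1450184_s_at, with 8.06% of all called) and 7wk against 4wk called 3. The 3 were Dbp 1418174_at, Cry1 and Per3 1460662_at (-1.56, SE 0.37, adjusted p = 0.0447 by limma), where 3.21% of all were called. The Per3 call held in 9 of 23 alternatives. Before adjustment, 6wk against 4wk had 4 of 18 members under 0.05, beside 23.9% of the array. For 7wk against 4wk it was 7 of 18, Npas2 1421037_at among them, beside 17.67%. The comparison of 7wk against 5wk called none, with 0.0487% of the array called and 4 of 18 members under 0.05 before adjustment, beside 11.02% of the array. All comparisons with the same age share its arrays.

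Counting only ages whose arrays did not overlap, 3 member probe sets were higher and 3 lower at 7wk than at 3wk, beside 28.4% of all probe sets in either direction. The higher ones were both Npas2 probe sets and Cry1, and the lower ones Dbp 1418174_at and the Per3 probe sets 1421087_at and 1460662_at. At 6wk 1 was higher than at 3wk (Clock 1418660_at) and 5 were lower (2 of Per3, 1 of Dbp and 2 of Tef), beside 32.6% of all. At 7wk 3 were higher than at 6wk and none lower, beside 20.8% of all. Npas2 had passed the filter on level through the arrays where it was high, so its part in these counts is a description only. The median difference of the 18 at 7wk against 3wk was -0.28, beside 0.08 for all tested probe sets, with 8 above 0 and 10 below.

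Pools of the same age that differed in 1 clock gene were also compared in the others. The deviations of gene means from their age means were correlated for all 45 pairs of genes over the 14 arrays, with exact permutations of arrays within ages (two-sided). None passed after Benjamini-Hochberg adjustment, the lowest adjusted p being 0.892, and 2 pairs had an unadjusted p under 0.05. These were Per2 with Tef (r = 0.724, exact p = 0.0478, rho = 0.644, exact p = 0.0525) and Per3 with Tef (r = 0.608, exact p = 0.0455, rho = 0.486, exact p = 0.140). Without 3wk A and B, the arrays farthest from the median of Per2, the first r was 0.465.

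Other genes of the loop were taken from a list of 13 transcription factors, of which 11 were tested. At 7wk compared with 3wk Bhlhe40, an E-box repressor also called DEC1, rose by 1.20 (SE 0.23, adjusted p = 0.0072 by limma), with a mean ratio of 1.60 ± 0.252 at 7wk and 0.701 ± 0.157 at 3wk (SD, n = 3 each). Rorb, an activator acting on ROR elements, fell by 2.13 (SE 0.49, adjusted p = 0.0198), with mean ratios of 0.772 ± 0.205 at 7wk and 3.42 ± 1.03 at 3wk. Rorb showed no steady decline between these ages. Its 4wk mean was already 0.593 ± 0.0431, a difference from 3wk of -2.48 (SE 0.49, adjusted p = 0.0886 by limma). The 5wk arrays then stood apart, with ratios of 1.39 and 4.35, and the 6wk mean was 1.59 ± 1.15. From 4wk to 7wk Rorb differed by only 0.35 (SE 0.49, adjusted p = 0.782 by limma). For 7wk against 3wk the other 9 were not called, and the median of the 11 was -0.22, beside 0.09 for all genes. Over all 10674 genes 759 rose and 319 fell, which with the hybridisation controls as a covariate became 201 and 69. With that covariate Bhlhe40 differed by 1.12 (adjusted p = 0.124) and Rorb by -2.34 (adjusted p = 0.139).

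Nr1d1 and Nr1d2, the repressors of Arntl also known as REV-ERB alpha and beta, averaged lower at 7wk than at 4wk without passing the test. This comparison was added after the values were seen. Against 3wk the 7wk differences by limma were -1.31 for Nr1d1 (adjusted p = 0.168) and -0.73 for Nr1d2 (adjusted p = 0.24). Nr1d1 averaged 0.489 ± 0.418 at 7wk and 1.26 ± 0.227 at 4wk, a difference of -1.70 (SE 0.54, adjusted p = 0.119 by limma). Nr1d2 averaged 0.663 ± 0.366 at 7wk and 1.54 ± 0.229 at 4wk, a difference of -1.36 (SE 0.36, adjusted p = 0.0602 by limma). At 7wk against 4wk Nfil3, a D-box repressor, had a difference of 0.96 (SE 0.38, adjusted p = 0.201), and Hlf, the third PAR bZIP factor, 0.27 (SE 0.17, adjusted p = 0.44).

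**Figure D4:**
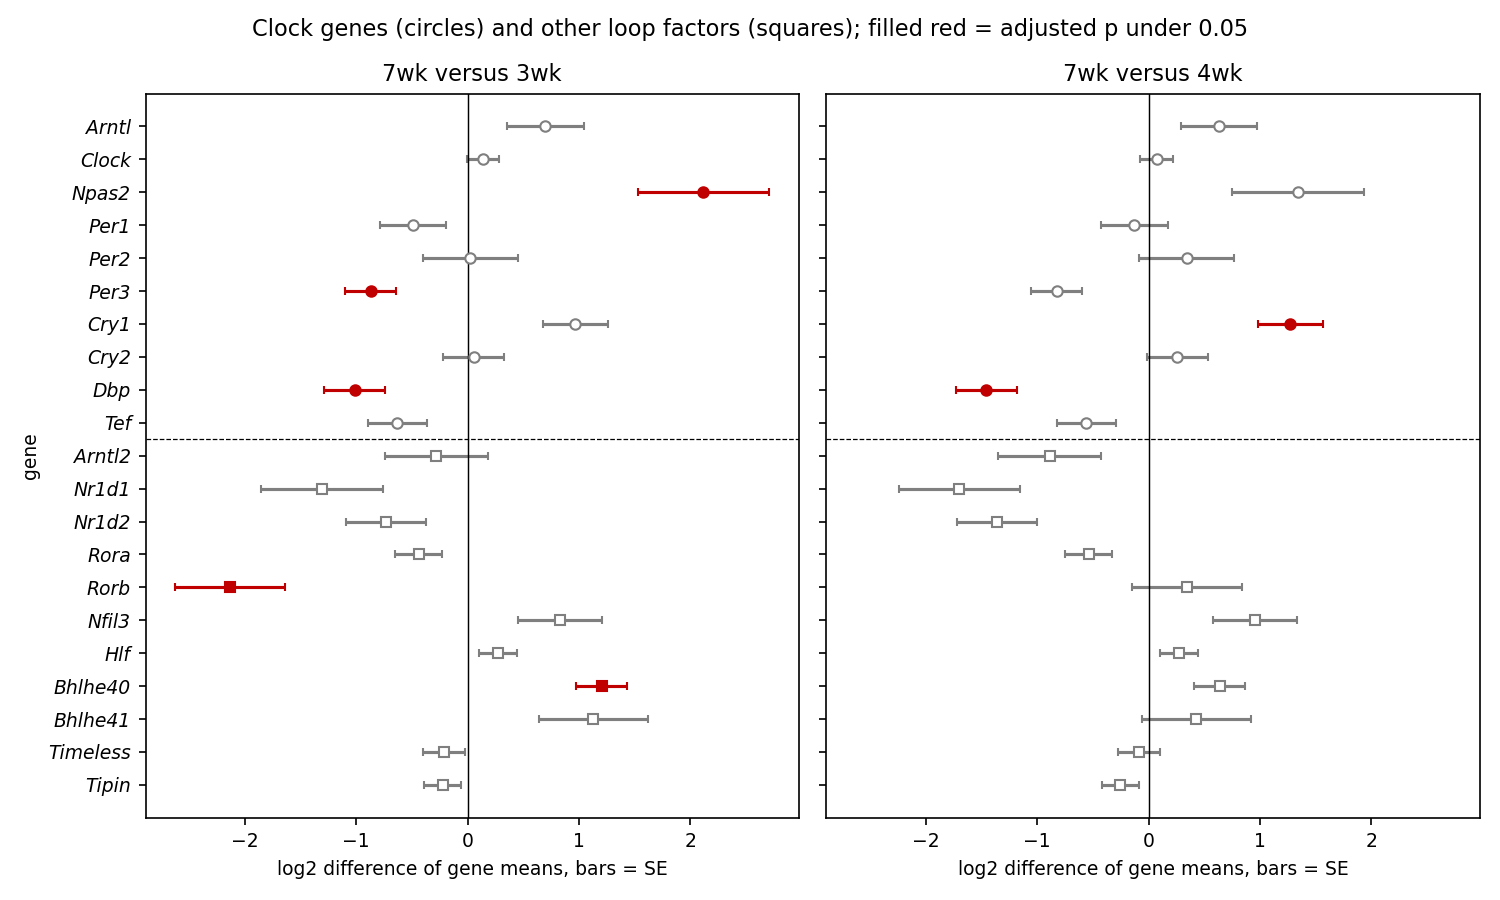
Log2 differences of gene means at 7wk against 3wk (left) and 7wk against 4wk (right), with bars of 1 SE, for the 10 clock genes (circles, above the dashed line) and 11 other transcription factors of the loop (squares). Filled red symbols have an adjusted p under 0.05. On the left they are Npas2, Per3, Dbp, Rorb and Bhlhe40, and on the right Cry1 and Dbp.

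Of 19 tested genes for kinases, ligases and cofactors of clock proteins, 2 rose and 1 fell at 7wk compared with 3wk, with a median of 0.04. Over all genes 10.1% were called in this comparison. Csnk2a1, a catalytic subunit of casein kinase II, fell by 0.52 (SE 0.13, adjusted p = 0.025 by limma). Crebbp, an acetyltransferase and coactivator, rose by 1.06 (SE 0.25, adjusted p = 0.0234), and so did Fbxw11, a ubiquitin ligase subunit, by 0.63 (adjusted p = 0.0194). With the hybridisation controls as a covariate their adjusted p were 0.151, 0.258 and 0.0617.

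Of 15 genes whose transcripts are rhythmic in many tissues, 2 rose and 4 fell, with a median of 0.05, beside 10.1% of all genes called. With the hybridisation controls as a covariate 2 of these 6 remained called (Alas1 and Noct, both lower). With that covariate 1.88% of all genes rose and 0.65% fell. Gys2, liver-type glycogen synthase, rose by 2.42 (SE 0.38, adjusted p = 0.00245 by limma), and Tfrc, the transferrin receptor, fell by 1.48 (SE 0.21, adjusted p = 0.0017). Alas1 (heme synthesis) and Nampt (NAD synthesis) each fell by 0.70, with adjusted p of 0.0111 and 0.0218. Ppp1r3c rose by 0.87 and Noct fell by 0.73 (adjusted p = 0.0435 and 0.0472). Fbxw11, Ppp1r3c and Noct were named after their values were seen.

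Markers of other cell types moved with age beside these changes. Over all genes 10.1% were called for 7wk against 3wk. Of 12 markers of luminal and basal epithelium 10 rose at 7wk compared with 3wk and none fell, with a median of 1.82. Their mean log2 ratio ran from 0.20 to 0.42 on the 7wk arrays and from -1.98 to -1.18 on the 3wk arrays. The epithelial adhesion genes Epcam and Cdh1 rose by 3.05 and 2.42 (adjusted p = 7.22e-05 and 8e-05 by limma). With the hybridisation controls as a covariate 8 of the 12 were called as higher, beside 1.88% of all genes higher and 0.65% lower. Of 8 brown adipocyte markers 6 fell, 4 of them also with that covariate, and none rose, with a median of -1.54. Their mean log2 ratio ran from -0.81 to -0.16 at 7wk, and from 1.03 to 1.51 at 3wk. Ppara, a fatty acid oxidation regulator, fell by 4.15 and Cox7a1, a respiratory chain subunit, fell by 3.33 (adjusted p = 7.04e-05 for both by limma).

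White adipocyte markers (2 fell of 7, with adjusted p of 0.242 and 0.158 under that covariate) had mean log2 ratios of -0.19 to -0.13 at 7wk and 0.03 to 0.18 at 3wk. Endothelial markers (1 rose of 6) had -0.25 to 0.11 at 7wk and -0.26 to 0.20 at 3wk. Lymphocyte markers (none called of 6) had -0.04 to 1.07 at 7wk and -0.16 to 0.65 at 3wk, with the glands' lymph nodes removed. Macrophage markers (none of 5) had 0.09 to 0.31 at 7wk and -0.50 to 0.11 at 3wk, and muscle markers (none of 6) -0.54 to -0.15 at 7wk and -0.63 to 0.67 at 3wk. These counts stand beside 10.1% of all genes called for 7wk against 3wk. No marker value was at the lowest ratio of the table. The part of these markers in the changes of the clock genes was not tested.

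For 4 of the clock genes the most alike and most opposite of 10664 other genes were found by the correlation of log2 ratios over the 14 arrays, which share ages and libraries. Npas2 was closest to Serpinf1 (r = 0.934), Pltp (0.917), Gusb (0.913), Adgre4 (0.911) and Cd34 (0.903), and most opposite to Ugt8a (-0.869), Mbp (-0.865) and Slc25a33 (-0.844). For Arntl the closest were Wfs1 (0.855), Rin2 (0.843), Glmp (0.840), Rbbp6 (0.826) and Ggt5 (0.824), and the most opposite Auts2 (-0.830), Foxo4 (-0.805) and Rad50 (-0.796). Genes with r over 0.8 numbered 75 for Npas2 and 6 for Arntl.

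Dbp was closest to Ndufa1 (r = 0.872), Acp6 (0.872), Apoc1 (0.867), Egfl7 (0.861) and Kcnj8 (0.859), and most opposite to Ms4a4d (-0.890), Penk (-0.868) and Prmt3 (-0.866). For Per2 no gene reached 0.8. Its closest were Uroc1 (0.789), Casr (0.771), Zp1 (0.771), Cxcr2 (0.762) and Sox17 (0.755), and its most opposite Cpsf1 (-0.881), Robo3 (-0.819) and Meis2 (-0.818). These correlations describe the 14 arrays and carry no test.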

How the data were processed

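The authors deposited linear ratios in a table of 22690 probe sets and 14 arrays. In the values, 98.48% of probe sets had a median of 1 within 0.001, so each had been divided by its own median. The sources used here do not name the software behind the signals. From the rounding step of the ratios the level before division was recovered for 7968 probe sets. The 4136 below 200 steps on all arrays or all but 1 were left out, as were 64 control probe sets, leaving 18490 tested and 10674 genes. Probe sets without a recovered level were kept, apart from controls. The log2 of each ratio was used, without an offset. No further normalization was applied, since the medians of the arrays lay within 0.0938 of each other (limit 0.2). The balance of calls depended on this choice. For 7wk against 3wk 1100 probe sets were called as higher and 480 as lower. With centred arrays these were 961 and 658, and with quantile normalization 773 and 710. The number of arrays limits the precision.

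With limma 3.58.1 (R 4.3.3) a single model of the 5 ages was fitted over the 14 arrays. It gave an F test, 4 comparisons with 3wk, and 3 more between 5wk and 4wk, 6wk and 5wk, and 7wk and 6wk. Tests were two-sided, with Benjamini-Hochberg adjustment within each comparison over all probe sets and a threshold of 0.05. The 3 other pairs of ages and the same fits to gene means under every alternative were added after the values were seen. The fit was tested on simulated data. The platform annotation gave 1 gene name for 20393 probe sets, several for 691 and no name for 1606, and promoters were taken from RefSeq. Python 3.11.15 with scipy 1.17.1, pandas 2.3.3, numpy 2.4.6 and matplotlib 3.10.9 served for the remaining steps.

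The members, lists and tests were chosen with earlier results of these data known. The 10 clock genes are always named, with up to 4 genes of each other list, taken by F test p among those called, and for Arntl, Npas2, Per2 and Dbp the 5 genes most alike and 3 most opposite. Usp2, Tsc22d3, Mt1, Mt2 and Dusp1 stand in 2 lists each. The arrays of each age served as replicates. The labels do not say whether a mouse gave RNA to several pools, so p-values measure only the spread between these arrays, which may be partly technical. Samples with the same replicate letter did not deviate together, with 0 of 26 pairs above a correlation of 0.1 (from -0.07 to 0.08), so the letters were not used to pair arrays. The alternatives were no filter on level, centring, quantile normalization, an offset of 0.05, a robust prior variance, the replicate letter as a block, the hybridisation controls or the actin ratio as a covariate, each array left out in turn, and, chosen after seeing the data, leaving out 6wk A and B together and the hybridisation covariate for the other gene lists.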

Additional observations from a re-analysis of the deposited data

How the results depend on the processing

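The counts of member probe sets called moved as follows. For the F test (2 of 18) the count was 3 with centred arrays, 4 with quantile normalization and 3 with the offset. It was 0 with the hybridisation controls as a covariate, 1 with the actin ratio as a covariate, 1 without 6wk A and B, and 1 to 3 without single arrays. For 6wk against 3wk (1) it was 0 with the actin ratio, 0 without 6wk A and B, and 0 to 1 without single arrays. For 7wk against 3wk (1) it was 2 with centred arrays, 3 with quantile normalization, 0 with the hybridisation controls, 3 without 6wk A and B, 3 of 10 as gene means, and 0 to 3 without single arrays. With the replicate letter as a block it was 2, and Cry1 at 7wk against 4wk was lost (adjusted p = 0.0717). For 6wk against 4wk (2) it was 1 with the hybridisation controls, 0 with the actin ratio, 0 without 6wk A and B, and 1 as gene means. For 7wk against 4wk (3) it was 4 with centred arrays, 4 with quantile normalization, 1 without the filter, 0 with the hybridisation controls and 1 with the actin ratio. It was 2 with the replicate letter as a block, 2 without 6wk A and B, 2 of 10 as gene means, and 0 to 4 without single arrays. For 5wk against 3wk, 5wk against 4wk, 6wk against 5wk, 7wk against 6wk and 7wk against 5wk (0 each) it was 0 to 1 without single arrays. For 4wk against 3wk it was 0 in all 24 alternatives, and for the correlations 0 in all 16. The cause of these moves was not tested.

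Of the differences followed here, those that turned their sign were uncalled ones of 7wk against 3wk. With centred arrays Clock 1418659_at was at -0.0095 and Cry2 at -0.0054, and with quantile normalization at -0.0023 and -0.051. With the hybridisation controls as a covariate Per2 1417602_at was at -0.45, Per2 1417603_at at 0.53 and Clock 1418660_at at -0.17. Without single arrays, Clock 1418659_at ran from -0.046 to 0.11, Cry2 from -0.13 to 0.24, Per2 1417602_at from -0.24 to 0.81 and Per2 1417603_at from -0.72 to 0.37. The called values of Tef at 6wk moved by over 1.5 times with the actin ratio and without 6wk A and B, those of 1450184_s_at to -0.72 and -0.83 against 3wk and to -0.88 and -1.34 against 4wk, and the gene mean against 4wk to -0.31 and -0.66. Low level limits several members: of 14 recovered levels, those under 200 steps numbered 11 and 9 for Npas2, 10 for Tef 1438033_at, 8 for Per3 1421086_at, 7 and 5 for Per2 and 6 for Cry1.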

Other observations

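Genes that respond quickly to growth factors or to glucocorticoids were also described. Of 24 tested immediate early genes 5 rose at 7wk compared with 3wk and none fell, with a median of 0.42, beside 0.09 for all genes, of which 759 rose and 319 fell among 10674. With the hybridisation controls as a covariate 2 of the 5 remained called, Jun (adjusted p = 0.0181) and Maff (adjusted p = 0.0471). Jun and Fos, subunits of the AP-1 factor, rose by 0.99 (SE 0.14, adjusted p = 0.00151 by limma) and 1.15 (SE 0.23, adjusted p = 0.00885). Maff, a small MAF factor, rose by 2.93 (SE 0.52, adjusted p = 0.00547). Ier3 rose by 0.84 (adjusted p = 0.0164), as did Ier5, named after its values were seen, by 1.49 (adjusted p = 0.0184). Their mean log2 ratio ran from 0.02 to 0.20 on the 7wk arrays and from -0.47 to -0.27 on the 3wk arrays.

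Of 16 glucocorticoid-responsive genes 1 rose and 1 fell at 7wk compared with 3wk, beside 10.1% of all genes called. The median of the 16 was 0.04. Lcn2, a secreted lipocalin that epithelium also makes, rose by 2.52 (SE 0.19, adjusted p = 6.83e-05 by limma), with a mean ratio of 1.39 ± 0.178 at 7wk and 0.244 ± 0.0496 at 3wk (SD, n = 3 each). Pdk4, named after its values were seen, fell by 1.25 (adjusted p = 0.0374). Both remained called with that covariate (adjusted p = 0.00408 and 0.0347). The mean log2 ratio of the list was 0.36 on 3wk A, against -0.34 and -0.26 on 3wk B and C. Array 3wk A also had the highest ratios of Per1 and of both Per2 probe sets in the series, and the part of either in the other was not tested. This array stood apart in other lists too. Muscle markers averaged 0.67 on it, against -0.50 and -0.63 on 3wk B and C, and epithelial markers -1.98, against -1.18 and -1.40. In immediate early genes and white adipocyte markers it lay between B and C.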
